A study of Mus musculus with 6 samples.

Results

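Metallothioneins and zinc transporters were examined in mouse intestinal tumors as 9 genes: the metallothioneins Mt1 and Mt2, the zinc importers Slc39a1, Slc39a4, Slc39a8 and Slc39a14, and the zinc exporters Slc30a1, Slc30a5 and Slc30a7. They were found through the platform annotation, as probe sets that name exactly 1 gene from this list, and made up 12 probe sets for 9 of the 12393 genes named on the array. In the RefSeq table Mt1 and Mt2 lie on chromosome 8, Slc39a1, Slc39a8 and Slc30a7 on 3, Slc39a4 on 15, Slc39a14 on 14, Slc30a1 on 1 and Slc30a5 on 13. The samples were 3 duodenal tumors, some of which could include tumor tissue of the pylorus, and 3 cecal tumors, each from a different mouse. All 6 mice carried Apc1638N, an Apc allele that predisposes to intestinal tumors, and were Rb1 deficient. The sources used here do not give how Rb1 was removed, nor the strain and age of the mice. RNA of each tumor was hybridised to 1 Affymetrix expression array, read as linear MAS5 intensities. Normal duodenum and cecum were not analysed here, and the comparison is of tumor with tumor.

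Metallothioneins are small, cysteine-rich proteins of the cytoplasm that bind zinc and copper and buffer both metals. Their genes are switched on by zinc through the metal-responsive factor MTF-1, and also by glucocorticoids, cytokines and oxidants. Proteins of the Slc39 family, also called ZIP proteins, bring zinc into the cytoplasm from outside the cell or from its compartments, and proteins of the Slc30 family, also called ZnT proteins, move it out. The upper small intestine is a main site of dietary zinc uptake.

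Of the 9 genes, Mt1 and Slc39a14 passed the test between sites, and both were higher in duodenal tumors. In Mt1 the mean intensity was 2.36 times that of cecal tumors, and in Slc39a14 it was 2.86 times. None of the 9 passed as lower in duodenal tumors. Mt2 had a mean ratio of 2.57, with values that overlapped between sites, and passed only in some alternatives, the fit blocked by replicate number among them (adjusted p = 0.0796 without the block, 0.00365 with it). The importers Slc39a1 and Slc39a4 and the Golgi exporters Slc30a5 and Slc30a7 had mean ratios between 0.83 and 1.16, while Slc39a8 and Slc30a1 were at 0.64 and 0.53 without passing.

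The test was limma on log2(intensity + 16), with p-values adjusted by Benjamini-Hochberg over all 13866 probe sets bright enough to be tested and a threshold of 0.05. Log2 differences are duodenal minus cecal, and the offset of 16 understates those of dim genes. A gene with several probe sets is counted by its brightest. Each of the 9 genes had a tested probe set, and of the 12 probe sets 11 were tested. The 2 of 9 genes that passed stand against 10.5% of all 8129 tested genes, 4.75% higher and 5.71% lower in duodenal tumors. Counts of genes that passed in every other list below stand against the same shares. With the replicate number as a block 3 of the 9 passed, against 12.7% of all tested genes. The values of the sites did not overlap for 6 of the 9 genes, against 31.2% of all tested genes. The 6 include Slc30a1, which was bright enough to be tested only through the cecal group. Counted by probe set, 2 of the 11 passed, against 9.3% of all tested probe sets, and 7 did not overlap, against 29.5%. The members' median log2 difference was -0.14, where the median of all tested genes was 0.05. Of the 9 folds, 4 were positive and 5 negative, with no common direction. Of all 8129 tested genes, 4592 had a positive and 3537 a negative fold, and 2028 had an unadjusted limma p under 0.05.

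**Figure D1:**
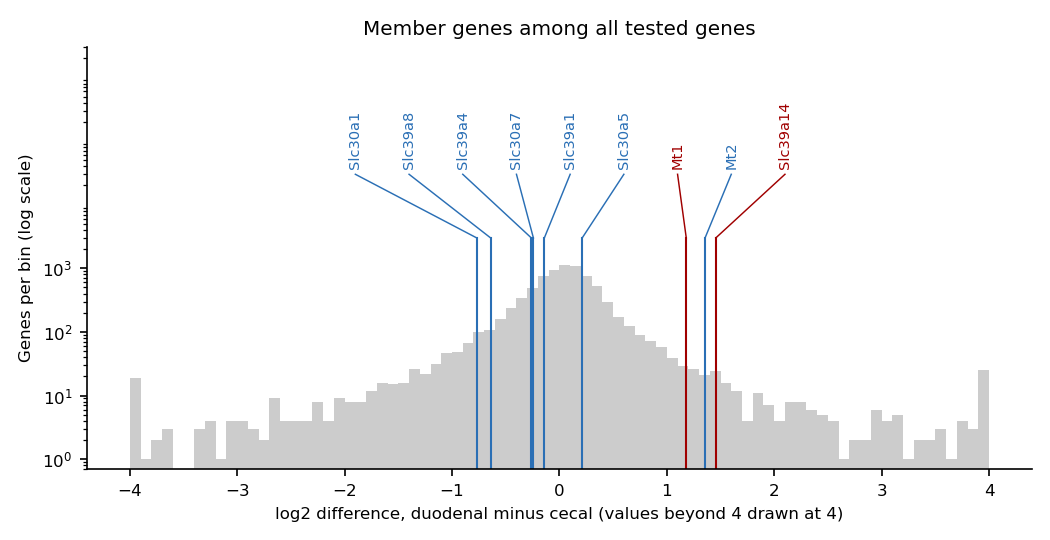
Histogram of the fitted log2 difference (duodenal minus cecal, horizontal axis) of the 8129 tested genes, with the number of genes per bin on a log scale. Lines mark the 9 members, red for the 2 that passed the test (Mt1 and Slc39a14) and blue for the others, which lie between -0.77 and 1.36.

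Before the values, the sequences upstream of 3 genes are shown: the metallothioneins, which had like folds, and the exporter Slc30a1, whose fold had the opposite sign. Slc30a1 did not pass. It was bright enough to be tested only through the cecal group, so its sign largely follows from that filter. All 3 are textbook targets of MTF-1. RefSeq windows were on hand for 7 of the 9 genes. Slc39a4 and Slc39a14 had no window and were not searched. Each line below gives, on the plus strand of GRCm38.p6, the 250 bases before the annotated gene start: chr8:94178839-94179088 for Mt1, chr8:94172368-94172617 for Mt2 and chr1:191906531-191906780 for Slc30a1. Capitals mark matches on either strand to the metal response element core, spelled TGCACNC or TGCGCNC.
Mt1: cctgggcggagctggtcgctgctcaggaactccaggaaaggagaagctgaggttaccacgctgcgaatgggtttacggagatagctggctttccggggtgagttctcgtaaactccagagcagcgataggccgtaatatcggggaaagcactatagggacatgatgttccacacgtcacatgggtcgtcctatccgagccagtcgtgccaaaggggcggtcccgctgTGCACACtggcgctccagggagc
Mt2: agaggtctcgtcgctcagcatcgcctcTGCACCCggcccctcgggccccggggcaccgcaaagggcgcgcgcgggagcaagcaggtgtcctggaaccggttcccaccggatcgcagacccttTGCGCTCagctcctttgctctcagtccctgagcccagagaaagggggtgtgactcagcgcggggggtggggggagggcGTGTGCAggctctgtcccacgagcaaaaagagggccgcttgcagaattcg
Slc30a1: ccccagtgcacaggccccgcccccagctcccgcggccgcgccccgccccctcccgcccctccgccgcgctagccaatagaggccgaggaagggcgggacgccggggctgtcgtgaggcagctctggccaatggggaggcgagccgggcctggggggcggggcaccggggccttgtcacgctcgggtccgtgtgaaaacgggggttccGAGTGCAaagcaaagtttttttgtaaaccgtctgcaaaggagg

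Mt2 held 3 matches to the metal response core in this window, while Mt1 and Slc30a1 held 1 each. Of the members not printed, Slc30a5 and 1 of the 2 Slc39a8 windows also held 1, and Slc39a1 and Slc30a7 held none. Of the 32851 windows of the same length in the table, 21.4% held at least 1 match and 1.26% held 3 or more. The antioxidant response core TGACNNNGC, searched on both strands, had 1 match in Mt2, 1 in Slc30a1, 1 in Slc39a1, 1 in the other Slc39a8 window and none in the remaining members' windows, and 10.2% of all windows held one. In Mt2 and Slc30a1 these matches did not overlap the capitals. A match of such short cores is a description of letters and does not show a bound site, and bases after the annotated start, where further cores can lie, were not searched.

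Mt1 was higher in duodenal tumors. Its bright probe set (1422557_s_at) had intensities of 4833.7, 2932.8 and 6720.9 in duodenal tumors 1, 2 and 3, against 1760.5, 1728.3 and 2652.2 in cecal tumors 1, 2 and 3. Every duodenal value was above every cecal value, but the lowest duodenal tumor, tumor 2, lay close to the highest cecal tumor, tumor 3. The means were 4829.1 ± 1894.1 in duodenal and 2047 ± 524.4 in cecal tumors (SD, n = 3 each), with a log2 difference of 1.18 ± 0.29 (SE; limma adjusted p = 0.0435). The call is near its threshold. It was lost without duodenal tumor 1 (adjusted p = 0.118) or 3 (0.103), without cecal tumor 1 (0.15) or 2 (0.144), with arrays centred on their medians (0.0526), with no filter on dim probe sets (0.0686) and with no intensity trend (0.0585). The log2 difference stayed between 0.90 and 1.5 over the 17 alternatives run. The s in the probe set's name marks probes that can match more than 1 transcript, so signal from a related transcript is not separated here.

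A second Mt1 probe set (1451612_at) was dim and was not tested. It had 61.5, 31.9 and 101.5 in duodenal tumors, against 42.5, 31.8 and 40 in cecal tumors. Only duodenal tumor 3 was above its array's 40th percentile, the level that stands in here for a detection call (92.4 to 100.6), and the sites overlapped.

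Mt2, the neighbouring metallothionein gene on chromosome 8, had 3410.5, 1744.3 and 4534.2 in duodenal tumors, against 922.9, 849.3 and 1999.8 in cecal tumors. Cecal tumor 3 was above duodenal tumor 2, so the sites overlapped. The means were 3229.7 ± 1403.7 in duodenal and 1257.3 ± 644 in cecal tumors (SD, n = 3 each), with a log2 difference of 1.36 ± 0.41 (SE; limma adjusted p = 0.0796). In a fit blocked by replicate number, which compares tumor 1 with tumor 1 and so on, Mt2 passed (adjusted p = 0.00365). It also passed without duodenal tumor 2 (0.0248) or cecal tumor 3 (0.0276), and with array weights (0.0194).

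The metallothioneins varied together from tumor to tumor. At both sites tumor 3 had the highest and tumor 2 the lowest level of Mt1 and of Mt2. Cecal tumors 1 and 2 lay close together, at 1760.5 and 1728.3 for Mt1 and 922.9 and 849.3 for Mt2. Over the 6 arrays their log2 levels correlated at r = 0.984, which includes the difference between sites. Mt2 ranked 22nd among 8128 genes by likeness to Mt1, and the first 3 were Borcs7 (r = 0.9972), Dmac2 (0.9962) and Inpp5e (0.996). For Mt2 the first 3 were Tmed4 (0.9957), Ppp2r3c (0.9953) and Stat5a (0.9949). With each site's mean removed, the first 3 were Slc44a3, Cnppd1 and Dnajb2 for Mt1 and Tmed4, Coa5 and Stat5a for Mt2, at r = 0.9931 to 0.9998. With 6 arrays such high values arise for many genes, and these genes are named as a description only.

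Tumor 2 of each site was also the only array of its site with Xist, the X-inactivation RNA of female cells, at 3608.5 in duodenal tumor 2 and 3010.9 in cecal tumor 2, against 1.2 to 17.5 on the other 4 arrays. The Y-linked gene Eif2s3y was at 1.2 in duodenal tumor 2 and 13 in cecal tumor 2, against 580.6 to 868.2 on the other 4. By these RNAs tumor 2 of each site was from a female and the others from males, so sex and tumor number cannot be told apart. On the 4 arrays with low Xist alone, a comparison added after the data were seen, Mt1 differed by 1.39 (log2, limma adjusted p = 0.025) and Mt2 by 1.52 (adjusted p = 0.0599).

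**Figure D2:**
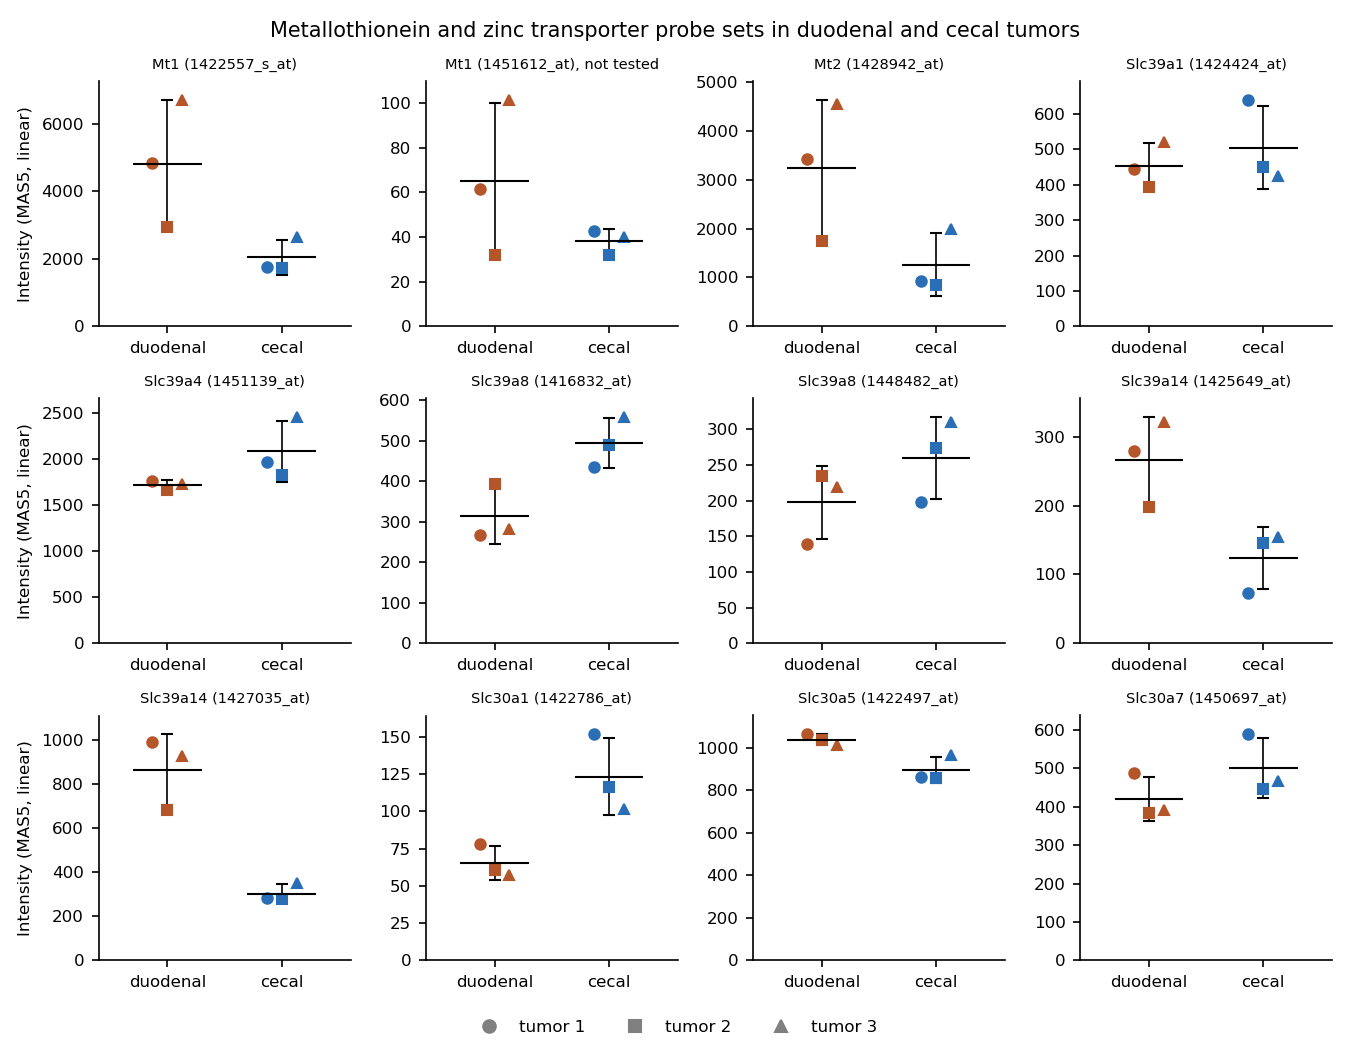
Intensity (linear MAS5 units, vertical axis from 0) of the 12 probe sets of the 9 genes in the 3 duodenal tumors (orange, left) and 3 cecal tumors (blue, right), with symbols for tumors 1, 2 and 3. Horizontal lines are site means and bars are 1 SD. The sites are furthest apart, relative to their spread, in the bright Slc39a14 probe set, with 682 to 991.6 in duodenal and 277.2 to 351.8 in cecal tumors.

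Slc39a14 had the clearest difference of the 9 genes. It encodes ZIP14, an importer of zinc that also carries iron and manganese. The bright probe set (1427035_at) had 991.6, 682 and 925.8 in duodenal tumors, against 281.3, 277.2 and 351.8 in cecal tumors. Every duodenal value was well above every cecal value. The means were 866.5 ± 163.1 in duodenal and 303.4 ± 41.9 in cecal tumors (SD, n = 3 each), with a log2 difference of 1.46 ± 0.18 (SE; limma adjusted p = 0.00209). Slc39a14 passed under each of the 17 alternatives run, with log2 differences of 1.25 to 1.62 and adjusted p of 0.000531 to 0.0135. In a tumor as a whole, more cells that express a gene and more RNA per cell cannot be told apart.

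A second Slc39a14 probe set (1425649_at) had 279.5, 198.1 and 321.2 in duodenal tumors, against 72.9, 145 and 154.6 in cecal tumors. The sites again did not overlap, and the log2 difference of 1.04 ± 0.29 (SE) did not pass (limma adjusted p = 0.0617, against 0.0435 when tumors were blocked by number). The genes most like Slc39a14 over the 6 arrays were Fam241b (r = 0.9995), Slc7a9 (0.9988) and Neurog3 (0.9973).

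Slc39a4 encodes ZIP4, the apical zinc importer of enterocytes whose loss causes the human zinc deficiency acrodermatitis enteropathica. It had 1767.5, 1669.7 and 1738.3 in duodenal tumors, against 1970.1, 1827.3 and 2465.5 in cecal tumors. The duodenal tumors lay within a narrow range just below the cecal tumors, and the log2 difference of -0.26 ± 0.14 (SE) did not pass (limma adjusted p = 0.299).

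Slc39a8 encodes ZIP8, which carries zinc and manganese and is the close relative of ZIP14. Its brighter probe set (1416832_at) had 266.8, 394.2 and 283.3 in duodenal tumors, against 436, 489.2 and 560.1 in cecal tumors. The sites did not overlap, in the direction opposite to Slc39a14. The log2 difference of -0.64 ± 0.18 (SE) did not pass (limma adjusted p = 0.0676), and it passed with quantile normalization (0.0497), with median centring (0.0424), with array weights (0.0166) and without duodenal tumor 2 (0.025). The other Slc39a8 probe set (1448482_at) had 139.6, 234.1 and 218.6 in duodenal tumors, against 197.4, 273.2 and 309.9 in cecal tumors, with overlap (log2 difference -0.38 ± 0.24 SE, adjusted p = 0.392).

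Slc39a1, a broadly expressed importer of the cell surface, had 443.8, 392 and 519.9 in duodenal tumors, against 639.9, 448.7 and 425.6 in cecal tumors. The ranges overlapped and the log2 difference was -0.14 ± 0.19 (SE; limma adjusted p = 0.717). Without cecal tumor 1, the highest of its site, the sign turned (0.0377, adjusted p = 0.946).

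Slc30a1 encodes ZnT1, the exporter that releases zinc across the plasma membrane. It had 78, 60.8 and 57.1 in duodenal tumors, against 152.1, 116.1 and 101.8 in cecal tumors. All 3 duodenal values were below the 40th percentile of their arrays and all 3 cecal values above it, so the probe set was tested only through the cecal group, and the direction largely follows from that filter. Counting from the percentile, cecal tumors had at least 1.21-fold higher Slc30a1. The fitted log2 difference was -0.77 ± 0.22 (SE; limma adjusted p = 0.0686, or 0.0368 with no intensity trend).

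Slc30a5 and Slc30a7 encode ZnT5 and ZnT7, which load zinc into the early secretory pathway for enzymes such as alkaline phosphatase. Slc30a5 had 1067, 1035.1 and 1015.4 in duodenal tumors, against 864, 856.7 and 967.5 in cecal tumors. These values did not overlap, yet the log2 difference was only 0.21 ± 0.12 (SE; limma adjusted p = 0.327). Slc30a7 had 487.1, 383.5 and 391 in duodenal tumors, against 590.4, 446.6 and 466.6 in cecal tumors, with overlap and a log2 difference of -0.24 ± 0.16 (SE; adjusted p = 0.427).

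**Figure D3:**
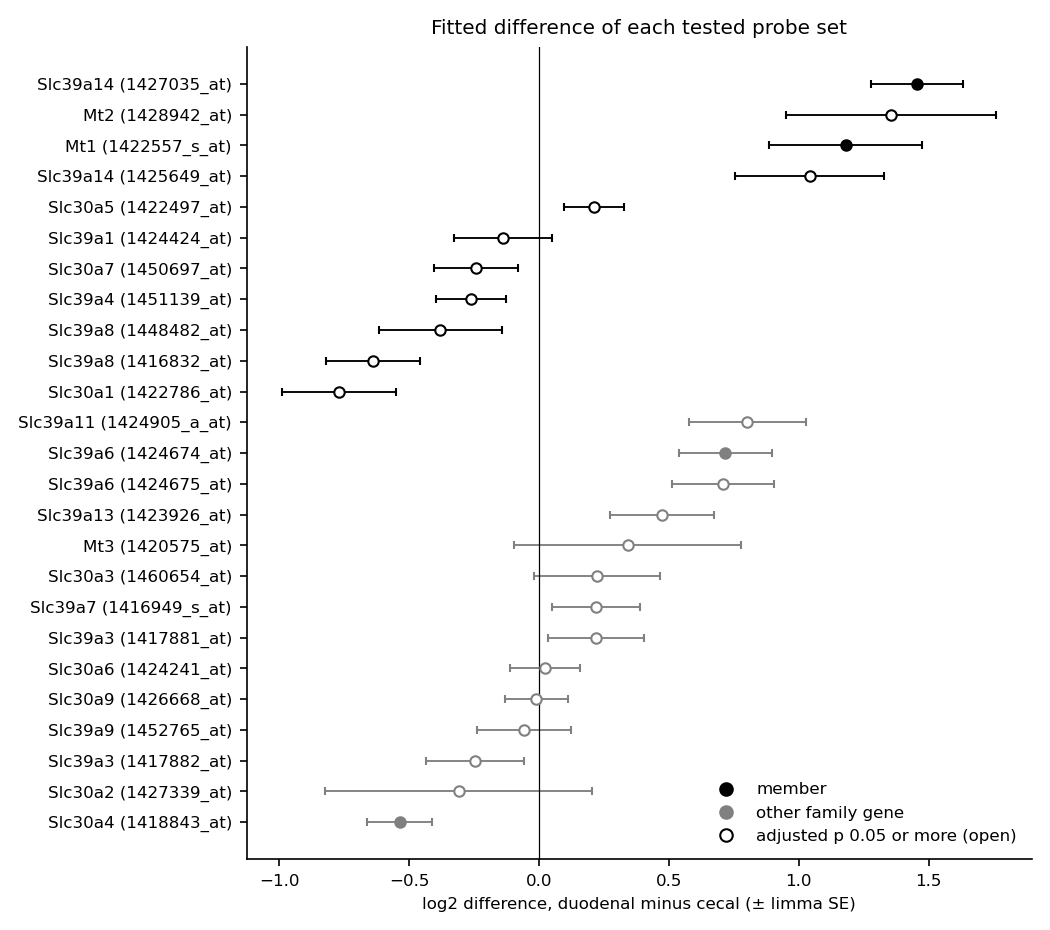
Fitted log2 difference (duodenal minus cecal, horizontal axis) with limma SE for each tested probe set of the 9 genes (black) and of the other metallothionein and zinc transporter genes (grey). Filled points passed at an adjusted p under 0.05: Mt1, the bright probe set of Slc39a14, 1 probe set of Slc39a6, and Slc30a4 on the lower side.

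Among the remaining family genes, 1 importer was higher and 1 exporter lower in duodenal tumors. Of 10 other Slc39 importers 6 were on the array and tested, 1 of them higher and none lower, with a median log2 difference of 0.35. The 1 was Slc39a6, which encodes ZIP6 of the plasma membrane, with 448.9, 602.7 and 400.4 in duodenal tumors, against 252.5, 291.7 and 310.2 in cecal tumors (log2 difference 0.72 ± 0.18 SE, limma adjusted p = 0.0434). A dimmer Slc39a6 probe set also differed by 0.71 and did not pass (adjusted p = 0.0613). The call of Slc39a6 was lost without any single array but duodenal tumor 3 (adjusted p = 0.064 to 0.136), with no filter (0.0686) and on the 4 arrays with low Xist (0.196).

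Slc39a11, which encodes ZIP11 of the same family, had 1477.6, 1007.3 and 1766.1 in duodenal tumors, against 678.7, 731.7 and 973.7 in cecal tumors. Its values did not overlap and were highest in tumor 3 of each site, and the log2 difference of 0.80 ± 0.23 (SE) passed only with the block (adjusted p = 0.0657 without it, 0.0189 with it), without duodenal tumor 2 (0.0173) and with array weights (0.0164). The other tested importers, Slc39a13, Slc39a7, Slc39a9 and Slc39a3, had log2 differences of 0.47, 0.22, -0.06 and -0.25. The second Slc39a3 probe set, at 0.22, had the opposite sign, and none of these passed.

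Of 7 other Slc30 exporters 5 were on the array and tested, none higher and 1 lower in duodenal tumors, with a median log2 difference of -0.01. Slc30a4, which encodes the vesicular exporter ZnT4, had 752, 710.1 and 669.3 in duodenal tumors, against 1147.1, 969.6 and 1002.2 in cecal tumors (log2 difference -0.54 ± 0.13 SE, limma adjusted p = 0.0345). Its values did not overlap, but the call was lost without any single array (adjusted p = 0.065 to 0.111) and on the 4 arrays with low Xist (0.133). Slc30a3, Slc30a6, Slc30a9 and Slc30a2 had log2 differences of 0.22, 0.02, -0.01 and -0.31 and did not pass. Slc30a2, an exporter of secretory vesicles, ranged from 165.3 to 661.5 within the duodenal tumors alone.

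The 2 further metallothioneins did not pass or were not tested. Mt3, known from brain, had 97.2, 390.4 and 141.7 in duodenal tumors, against 113.3, 188.5 and 118.9 in cecal tumors, and was highest in tumor 2 of each site, where Mt1 and Mt2 were lowest (log2 difference 0.34 ± 0.44 SE, limma adjusted p = 0.701). Mt4, known from stratified epithelium, was not tested, with 194.6, 142.2 and 69.4 in duodenal tumors, against 5, 48.6 and 30.3 in cecal tumors. All 3 cecal values were below the 40th percentile, and so was that of duodenal tumor 3.

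Genes known to respond to the same inducers as Mt1 and Mt2 were taken as further lists. Of MTF-1 and 5 of its other reported targets, 6 were tested and none passed with limma. At an unadjusted limma p under 0.05 were 4 of the 6, against 2028 of all 8129 tested genes. In the blocked fit 1 was higher and 1 lower, where 12.7% of all tested genes passed. Mtf1 itself had 237.8, 219.9 and 107.5 in duodenal tumors, against 233.9, 232.2 and 145.7 in cecal tumors. Its values overlapped, with a log2 difference of -0.15 ± 0.31 (SE; adjusted p = 0.825). The 2 that passed with the block, named after their values were seen, were Hspa1a, an inducible heat shock protein, at 459.9, 236 and 524.7 in duodenal tumors, against 175.4, 156.8 and 219.2 in cecal tumors (limma adjusted p = 0.0648, or 0.0159 with the block), and Ndrg1, a stress-responsive gene, at 1488.9, 1064.5 and 1227.9 in duodenal tumors, against 4163.2, 3711.6 and 1523.8 in cecal tumors (limma adjusted p = 0.0737, or 0.0289 with the block). Of 4 dimmer Ndrg1 probe sets, 1 passed without the block (adjusted p = 0.0481). Hspa1a was highest in tumor 3 and lowest in tumor 2 of each site, as were the metallothioneins. How many of all genes share such an order of tumors was not counted, here or elsewhere.

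Of 10 tested glucocorticoid response genes, 3 were lower in duodenal tumors and none was higher, with 9 of 10 folds negative and a median log2 difference of -0.52. Among all 8129 tested genes 5.71% were lower and 4.75% higher, and 3537 had a negative fold. Fkbp5, a co-chaperone of the glucocorticoid receptor, averaged 233.4 ± 12.1 in duodenal and 865.8 ± 81.2 in cecal tumors (SD, n = 3 each; log2 difference -1.82 ± 0.13 SE, limma adjusted p = 0.0002). Hsd11b1, an enzyme that regenerates active glucocorticoid, averaged 155.2 ± 24.5 in duodenal and 374.8 ± 28.2 in cecal tumors (limma adjusted p = 0.00337). The third was Dusp1, a phosphatase of MAP kinases, at 732.9 ± 101.1 in duodenal and 1404.4 ± 349.4 in cecal tumors (limma adjusted p = 0.0256), a call lost without duodenal tumor 2 (0.0641) or 3 (0.0804), without cecal tumor 1 (0.087) or 2 (0.0813), and on the 4 arrays with low Xist (0.144).

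Of 8 tested oxidant response genes, 2 were higher and 2 lower in duodenal tumors, against 4.75% and 5.71% of all tested genes. Nqo1, a quinone reductase, averaged 1731.6 ± 670.4 in duodenal and 707.9 ± 175.8 in cecal tumors (limma adjusted p = 0.0265), and Gsr, glutathione reductase, 2598.8 ± 341.4 in duodenal and 1639.6 ± 132.7 in cecal tumors (limma adjusted p = 0.0203). Srxn1, sulfiredoxin, averaged 581 ± 82.6 in duodenal and 1116.7 ± 190 in cecal tumors (limma adjusted p = 0.0144), and the cystine transporter Slc7a11 44.3 ± 17.3 in duodenal and 114.2 ± 12.3 in cecal tumors (limma adjusted p = 0.0326; SD, n = 3 each throughout). Slc7a11 was below the 40th percentile in all duodenal tumors, was tested only through the cecal group and was at least 1.13-fold higher there. Each of these 4 calls was lost without at least 2 of the single arrays (adjusted p = 0.0501 to 0.118 where lost). None of 8 tested IL-6 and STAT3 response genes passed with limma, and none of 10 tested copper handling genes did. At an unadjusted limma p under 0.05 were 1 and 2 of them, against 2028 of all 8129 tested genes. The median log2 differences of the IL-6 and copper lists were 0.00455 and 0.04. Of the copper genes, Steap4, a metalloreductase named after its values were seen, had a dimmer probe set that passed (log2 difference -1.13, adjusted p = 0.0294). Its brighter one, at -0.90 (adjusted p = 0.112), passed without duodenal tumor 2 (0.00532), with array weights (0.0242) and on the 4 arrays with low Xist (0.0228).

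Among alkaline phosphatases, zinc enzymes that take up their metal in the secretory pathway, 2 genes were tested and 1 was higher in duodenal tumors. Akp3, known as the mouse duodenal alkaline phosphatase, had 902.9, 151 and 2899 in duodenal tumors, against 32.2, 31 and 18.3 in cecal tumors. All cecal values were below the 40th percentile, and duodenal tumors had at least 7.63-fold higher Akp3 (limma adjusted p = 0.0201), a direction that largely follows from the filter. Tumor 3 was highest and tumor 2 lowest among the duodenal tumors, as for Mt1 and Mt2, an order that was not counted over all genes. The call was lost without duodenal tumor 1 or any single cecal tumor (adjusted p = 0.0531 to 0.0754). Alpl, the broadly expressed alkaline phosphatase, did not pass (log2 difference -0.53 ± 0.24 SE, adjusted p = 0.245).

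**Figure D4:**
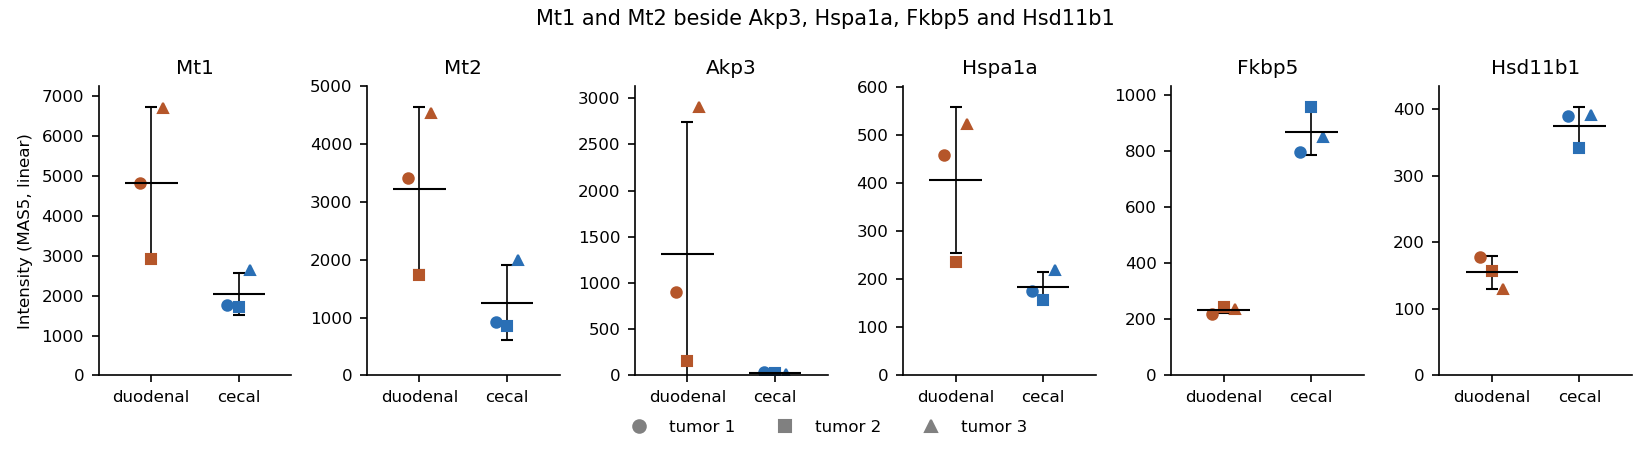
Intensity (linear MAS5 units, vertical axis from 0) of Mt1, Mt2, Akp3, Hspa1a, Fkbp5 and Hsd11b1 in duodenal (orange, left) and cecal tumors (blue, right), with symbols for tumors 1, 2 and 3, site means and 1 SD (the lower bar of Akp3 in duodenal tumors is cut off at 0). Tumor 2 is the lowest duodenal tumor for Mt1, Mt2, Akp3 and Hspa1a, and Fkbp5 and Hsd11b1 are lower in every duodenal than in every cecal tumor.

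Of the cell marker lists, that of the stomach and pylorus differed most between sites. In the other lists some or none of the tested genes passed. All 9 tested stomach and pylorus genes were higher in duodenal tumors, but 8 of them were below the 40th percentile in every cecal tumor and were tested only through the duodenal group, so their direction follows from the filter. The other was Tff1, a mucosal trefoil peptide, with 8241.1, 9275.6 and 11240.1 in duodenal tumors, against 368.7, 447.2 and 524.7 in cecal tumors (log2 difference 4.38 ± 0.17 SE, limma adjusted p = 5.0e-06). The list had summed intensities of 56306.2 to 85286.6 in duodenal and 620.9 to 846.5 in cecal tumors. Among duodenal tumors the sum was highest in tumor 3 and lowest in tumor 2, as was Mt1, while Tff1 was lowest in tumor 1. Of 9 intestinal epithelium genes 3 were lower in duodenal tumors and none was higher, against 5.71% and 4.75% of all tested genes. The 3 were Cdx1 (log2 difference -1.57, limma adjusted p = 0.00496), Cdx2 (-1.63, adjusted p = 0.000783) and Vil1. With the replicate block 4 were lower, Krt20 being the addition (adjusted p = 0.0067, against 0.0767 without it). Intestinal epithelium genes summed to 52669.7 to 60018.3 in duodenal and 64234.2 to 67297.4 in cecal tumors. Of 4 tested mature enterocyte genes 1 was lower, of 4 Paneth cell genes 1 was lower, and of 10 smooth muscle and fibroblast genes 1 was lower, with none of the tested genes higher. With the replicate block 2 smooth muscle and fibroblast genes were lower, Col1a1 being the addition (adjusted p = 0.0101, against 0.0736 without it), and dimmer probe sets of Col1a1 (0.0316) and Col1a2 (0.0377) passed without the block. The enterocyte call, Vil1, which is also in the intestinal epithelium list, was lost without any single array but duodenal tumor 3 (adjusted p = 0.0549 to 0.1), the Paneth cell call, Lyz1, without cecal tumor 2 (0.0788), and the fibroblast call, Col3a1, without duodenal tumor 1 (0.0646) or cecal tumor 1 (0.058). All 3 were lost on the 4 arrays with low Xist (0.0902 to 0.177). The enterocyte apolipoproteins Apoa1 and Apoa4 were not tested, being above the percentile in duodenal tumors 1 and 3 only. The brightest Apoa1 probe set had 873.2, 29.6 and 910.4 in duodenal tumors, against 22.4, 34.3 and 40.2 in cecal tumors. The brighter Apoa4 probe set had 445.4, 65.5 and 670.3 in duodenal tumors, against 9, 20.6 and 24.6 in cecal tumors. As with Mt1 and Mt2, duodenal tumor 2 was the lowest of its site for both. Fabp2, a tested enterocyte gene, went the other way, with 1647, 666.2 and 1671.8 in duodenal tumors, against 6377.7, 5765.8 and 1804.5 in cecal tumors. Its values did not overlap, and it did not pass (log2 difference -1.71, limma adjusted p = 0.0811). It passed without cecal tumor 3 (0.0131) and with array weights (0.043). In cecal tumors Fabp2 was lowest in tumor 3, where Mt1 and Mt2 were highest. Apob (-0.48) and Anpep (0.67) did not pass. Enterocyte genes summed to 3921.5 to 7707.1 in duodenal and 7358 to 11776.5 in cecal tumors. Paneth cell genes summed to 22195.8 to 34486.6 in duodenal and 25298.6 to 47192.8 in cecal tumors. Smooth muscle and fibroblast genes summed to 14627.2 to 20448.8 in duodenal and 20428.7 to 25317.6 in cecal tumors. None of 5 leukocyte and macrophage genes, 5 endothelium genes and 1 exocrine pancreas gene that were tested passed with limma. At an unadjusted limma p under 0.05 were 2, 1 and 0 of them, against 2028 of all 8129 tested genes. Leukocyte sums were 5912.1 to 6674.2 in duodenal and 7037.6 to 8606.9 in cecal tumors, without overlap. Most of each sum was 1 gene, Lyz2, at 3609 to 4303.8 in duodenal and 4541.2 to 6103.6 in cecal tumors. Of the other tested leukocyte genes, Ptprc was lower and Cd68 higher in duodenal tumors without overlap, and Csf1r and Adgre1 overlapped. Endothelium sums were 694.1 to 868.7 in duodenal and 738.9 to 988 in cecal tumors, and exocrine pancreas sums 232.7 to 2775.9 in duodenal and 312.9 to 771 in cecal tumors. The highest pancreas sum was that of duodenal tumor 2, and nearly all of it was 1 gene, Pnliprp1, at 2611. The other pancreas genes on that array were at 2.2 to 98, below its 40th percentile. No marker was listed at 0. The part of these cells in the differences of Mt1, Mt2 and Slc39a14 was not tested.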

How the data were processed

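Per the submitters' processing notes, the authors used MAS5 to make the deposited intensity of each probe set, on a linear scale. The sources used here give no version, scaling target or detection call. Array medians were 164.4 to 181.8, and the mean between the 2nd and 98th percentiles was 499.9 on every array, so nothing was rescaled. The labels' protocols state 6 mice. Precision is limited by there being 3 arrays per site.

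Of 22690 probe sets, 20380 named 1 gene, 691 several and 1555 none, and 64 controls were left out. Gene ids of 20351 were found in the RefSeq table (GRCm38.p6), and 0 symbols changed. Probe sets above their array's 40th percentile on at least 3 arrays were tested with limma 3.58.1 in R 4.3.3 (lmFit, eBayes with trend), after a test on simulated data. Bounds take the dim site at its percentile level.

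Members and lists were chosen with earlier results of these data known. All family genes tested are named, and of other lists at most 4 that passed. Tumors sharing a replicate number deviated together from their site means (r = 0.274, 0.299 and 0.203). The main test compared the sites without pairing, and the fit blocked by replicate number was run as an alternative. No label pairs the samples or names a shared batch, so the block rests on the numbers and on these same data. Alternatives covered the offset, filter, normalization, variance model, array weights, block, probe set choice and each array left out. Figures used Python 3.11.15 and matplotlib 3.10.9.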

Additional observations from a re-analysis of the deposited data

How the results depend on the processing

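Over the member probe sets, 162 of 182 alternative values kept direction and side of the threshold, 7 fell short of it, 12 newly passed and 1 reversed. The reversal was Slc39a1 without cecal tumor 1, at 0.0377 (log2) with an adjusted p of 0.946, in a range of -0.248 to 0.0377 without single arrays, and the cause was not tested. Of the 9 genes, 2 passed; 1 passed with no filter on dim probe sets, where more probe sets share the adjustment, 4 with array weights and 1 to 4 without single arrays. With the replicate block 3 passed, Mt2 being the addition, and beyond Mt2, the second Slc39a14 probe set and the genes given beside their values, pairing by replicate number changed no other member call. Among all genes 850 passed, with 447 to 798 without single arrays and 491 on the 4 arrays with low Xist. Among probe sets 1290 passed, with 1939 under array weights, 658 to 1194 without single arrays and 695 on the 4 arrays with low Xist. The causes were not tested. Scaling moved the median log2 difference of all probe sets by less than 0.1, between -0.0148 and 0.0421. Low signal limits the dim Mt1 probe set, Mt4 and Slc30a1, and 3 arrays per site limit the rest.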
